A study of Homo sapiens with 8 samples.

Results

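The genes described are the CDK inhibitors and D-type cyclins: the Cip/Kip inhibitors CDKN1A, CDKN1B and CDKN1C, the INK4 inhibitors CDKN2A, CDKN2B, CDKN2C and CDKN2D, and the cyclins CCND1, CCND2 and CCND3. They were taken by name from the 60725 genes of the count table, with earlier results of these data known. All 10 were found, and all 10 passed the filter on low counts that left 16852 genes for testing. D-type cyclins bind and activate CDK4 and CDK6, which phosphorylate the retinoblastoma protein and so release E2F factors to start the genes of S phase. INK4 proteins bind CDK4 and CDK6 and keep D-type cyclins away from them, whereas Cip/Kip proteins bind complexes of cyclin and CDK, block CDK2 and can also help cyclin D and CDK4 to assemble. Both the inhibitors and the cyclins are known for steep control at the level of transcription, by TGF-beta signalling, MYC and Polycomb among others.

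RNA-seq was performed on HAP1 cells, a near-haploid adherent human cell line derived from a chronic myeloid leukaemia. All groups came from 1 clone (SC9) that stably expresses dCas9-BFP-KRAB, a catalytically dead Cas9 fused to a repressor domain, from the EF1-a promoter, and all were selected with puromycin for a lentiviral guide RNA. There were 3 control libraries, whose guide RNA (labelled pLB187) targets ADAM22, 3 libraries with a guide RNA against NELFE and 2 with one against NELFB. NELFE and NELFB are subunits of the negative elongation factor (NELF), which holds RNA polymerase II shortly after initiation, and polyadenylated RNA was taken 144 h after transduction. Because the control cells also carry dCas9-BFP-KRAB and a guide RNA, every difference is between guide RNAs within 1 clone. The methods call the knockdown replicates independent, but the labels do not say which libraries were made on the same day. The libraries held between 22037423 and 24444185 counts. Mitochondrial genes took 4.62%, 3.72% and 3.48% of them in the control libraries, 4.26%, 4.47% and 4.36% in the NELFE knockdown and 4.81% and 5.01% in the NELFB knockdown, which thus lay above all others. The 10 most abundant genes took 4.67%, 4.07% and 4.08% in the control libraries, 4.70%, 4.82% and 4.92% after NELFE loss, and 5.24% and 5.29% after NELFB loss, so that every knockdown library lay above every control library. By the chi-square per gene between the counts of 2 libraries of a group, which grows as they differ beyond counting noise, control replicate 1 stood apart from replicates 2 and 3 (15.9 and 27.3, against 5.30 between those), and NELFE replicate 3 from replicates 1 and 2 (19.6 and 19.8, against 4.03). The part of these differences in the results was not tested, and the calls of the 10 genes that were lost on leaving out 1 library are named with each of them. Levels in each library are given as CPM, counts scaled to a common library size after TMM normalization, and differences as log2 fold changes with the standard error (SE) of the fit and an adjusted p from edgeR, where a gene was called at an adjusted p under 0.05.

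The labels were checked first on the targeted genes. NELFE was at 50.5, 49.4 and 48.1 CPM in the control libraries and at 2.41, 2.37 and 2.98 CPM in the NELFE knockdown. NELFB was at 74.4, 72.7 and 79.1 CPM in control cells and at 3.07 and 2.78 CPM in its own knockdown. ADAM22, the target of the control guide RNA, was at 13.7, 12.9 and 11.3 CPM in control cells, at 40.3, 47.4 and 29.9 CPM in the NELFE knockdown and at 35.6 and 41.1 CPM in the NELFB knockdown. Each gene was therefore lowest in the group whose guide RNA targets it. Of 9 markers of blood lineages, MPO and HBG1 had no reads in any library, PTPRC had 0 to 2 and SPI1 0 to 1, and 5 markers were at 0 in each control library. The most abundant was CD34, a marker of blood progenitors, with 3, 3 and 1 reads in the control libraries, 16, 6 and 28 in the NELFE knockdown and 67 and 21 in the NELFB knockdown. Summed over the 9 markers the level was 0.401, 0.443 and 0.263 CPM in control cells, 0.790, 0.903 and 1.58 CPM in the NELFE knockdown and 3.20 and 1.11 CPM in the NELFB knockdown. Without CD34 the other 8 markers summed to 7, 7 and 5 reads in control cells, 3, 15 and 6 after NELFE loss, and 10 and 5 after NELFB loss, with overlap. The higher sums thus came mainly from CD34, except in NELFE replicate 2, where GATA1 had 9 reads and CD34 had 6. The part of these markers in the results below was not tested.

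A few promoters illustrate the DNA before these genes. The windows are the 250 bases before the RefSeq start of each gene on GRCh38.p14, read 5′ to 3′ on the gene's strand. Capitals mark GC boxes, searched as GGGCGG on both strands with overlapping matches counted. CDKN1A and CDKN2B are shown because both rose in the knockdowns, CDKN1B because it is the Cip/Kip gene that was not called, and the CDKN2A window at the first exon of p16 because CDKN2A adjoins CDKN2B and was not called.
CDKN1A, chr6:36678464-36678713, plus strand: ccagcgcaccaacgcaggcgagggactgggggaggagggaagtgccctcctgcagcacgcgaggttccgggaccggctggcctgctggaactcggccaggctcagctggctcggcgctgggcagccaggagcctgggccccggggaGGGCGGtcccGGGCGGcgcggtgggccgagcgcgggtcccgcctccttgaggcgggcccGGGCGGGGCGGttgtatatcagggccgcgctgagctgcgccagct
CDKN2B, chr9:22009306-22009555, minus strand: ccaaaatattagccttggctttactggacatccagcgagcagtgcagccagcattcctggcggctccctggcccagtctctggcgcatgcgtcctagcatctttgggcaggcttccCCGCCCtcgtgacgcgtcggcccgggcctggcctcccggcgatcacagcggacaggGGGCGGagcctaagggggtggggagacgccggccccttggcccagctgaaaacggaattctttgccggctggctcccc
CDKN1B, chr12:12717118-12717367, plus strand: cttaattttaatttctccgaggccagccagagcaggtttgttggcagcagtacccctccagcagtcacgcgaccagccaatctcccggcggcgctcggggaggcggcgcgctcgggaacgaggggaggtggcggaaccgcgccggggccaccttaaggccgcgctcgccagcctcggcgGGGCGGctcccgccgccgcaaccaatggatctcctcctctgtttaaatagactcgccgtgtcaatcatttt
CDKN2A, chr9:21974858-21975107, minus strand: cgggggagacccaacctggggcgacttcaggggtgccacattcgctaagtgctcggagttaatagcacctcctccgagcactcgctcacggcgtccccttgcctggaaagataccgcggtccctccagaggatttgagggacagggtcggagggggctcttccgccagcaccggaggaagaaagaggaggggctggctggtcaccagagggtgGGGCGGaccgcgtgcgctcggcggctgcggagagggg
These windows hold 4 GC boxes for CDKN1A, 2 for CDKN2B, 1 for CDKN1B and 1 for CDKN2A. The number does not separate genes that rose from those not called, since the other windows of uncalled members hold 0, 1 and 5 for CDKN2C, 0, 2 and 5 for CCND3, 2 for CDKN2D and 0 for the other CDKN2A window. Of all 35116 promoter windows of this length, 42.6% hold at least 1. The GC content of the 4 windows shown was 76.4%, 66.4%, 64.4% and 66.8%, against a median of 58% over all windows. None of the 4 holds the TATA box letters TATAAA or the E-box CACGTG on either strand, which 10.7% and 6.34% of all windows do. The table has windows for 7 of the 10 genes, and CDKN1C, CCND1 and CCND2 are not among them.

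After loss of NELF, 5 of the 10 genes were higher and none was lower. CDKN1A, CDKN1C, CDKN2B and CCND1 rose in both knockdowns, between 2.91-fold and 7.80-fold, and CCND2 rose 2.06-fold in the NELFB knockdown. CDKN1B, CDKN2A, CDKN2C, CDKN2D and CCND3 were not called in either. In the NELFE knockdown 4 members were called higher, where 7.92% of all genes tested were, and 0 were called lower, where 7.04% of all genes were. The NELFB knockdown had 5 members higher, where 10.6% of all genes were, and 0 lower, where 8.88% of all genes were. With all 5 knockdown libraries set against the 3 control libraries, 5 members were higher and 0 lower, against 13.3% and 12.7% of the 16367 genes tested, although the calls of CDKN1A and CCND2 among them were lost on leaving out some single libraries. In 5 members every knockdown library lay above every control library, as for 14.7% of all genes, and in 0 members every one lay below, as for 14% of all genes. The median log2 fold change of the 10 members was 0.30 in the NELFE knockdown and 0.61 in the NELFB knockdown, while that of all genes tested was -0.01 and -0.003. Both comparisons use the same control libraries. In bulk RNA, a higher share of cells that express a gene and more RNA per cell cannot be told apart.

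**Figure D1:**
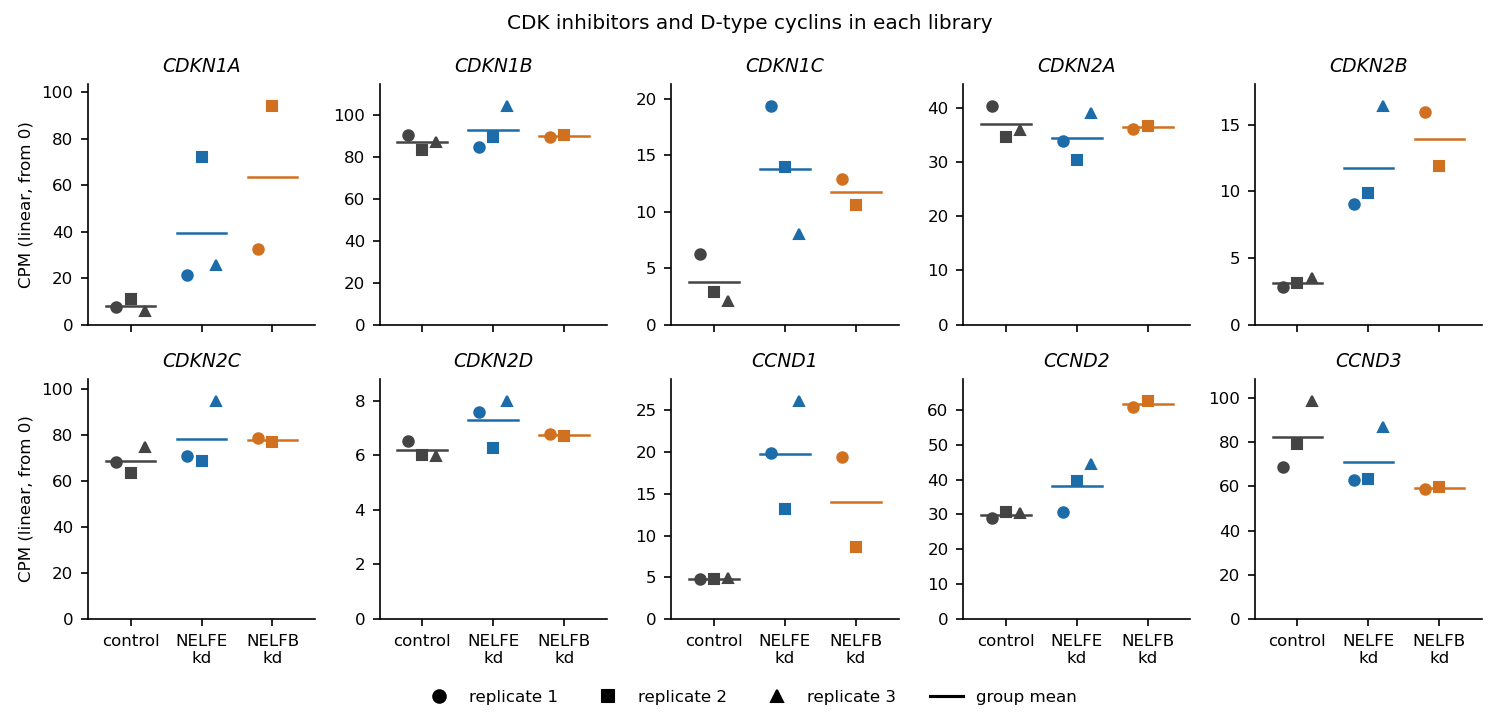
CPM of each of the 10 genes (vertical axes, linear from 0, scaled per gene) in the 3 control, 3 NELFE knockdown and 2 NELFB knockdown libraries; point shapes give the replicate number and lines the group means. All knockdown points of CDKN1A, CDKN1C, CDKN2B, CCND1 and CCND2 lie above the control points, while knockdown and control points overlap for the other genes, although both NELFB points of CDKN2C and CDKN2D lie above and both of CCND3 (58.9 and 59.6 CPM) below all control points.

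Among the Cip/Kip genes, CDKN1A (ENSG00000124762.13, chromosome 6, 36676460 to 36687337) encodes p21, an inhibitor that DNA damage is known to induce. Its level was 7.65, 11.0 and 5.69 CPM in the control libraries, 21.1, 72.1 and 25.5 CPM in the NELFE knockdown and 32.7 and 93.9 CPM in the NELFB knockdown. All knockdown libraries were above all control libraries, but they differed up to 4.45-fold among themselves, and the library numbered 2 was the highest of each group. CDKN1A rose by a log2 fold change of 2.29 in the NELFE knockdown (SE 0.62, edgeR adjusted p = 0.0477) and of 2.96 in the NELFB knockdown (SE 0.66, edgeR adjusted p = 0.0209). These calls depended on single libraries. The NELFE call was lost without any one of the control libraries or of NELFE replicates 1 and 2 (log2 fold changes between 1.52 and 2.59 over all omissions of 1 library), and the NELFB call was lost without control replicate 1 or 3 or NELFB replicate 2 (between 2.01 and 3.52). With no filter on low counts neither was called (edgeR adjusted p = 0.177 and 0.0932). The pooled call of CDKN1A (log2 fold change 2.597, edgeR adjusted p = 0.0296) was lost without any one of the control libraries (2.40 to 2.87, edgeR adjusted p between 0.0709 and 0.114) and with no filter on low counts (edgeR adjusted p = 0.0614). Without both knockdown libraries numbered 2, an alternative chosen after the data were seen, CDKN1A was called in the NELFE knockdown at 1.52 (edgeR adjusted p = 0.0236) and in the NELFB knockdown at 2.01 (edgeR adjusted p = 0.0104).

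CDKN1C (ENSG00000129757.12, chromosome 11, 2883213 to 2885775) encodes p57, an imprinted inhibitor best known from embryonic growth. Its level was 6.29, 2.88 and 2.06 CPM in control cells, 19.3, 14.0 and 8.05 CPM in the NELFE knockdown and 12.9 and 10.6 CPM in the NELFB knockdown. The highest control library was below the lowest knockdown library. CDKN1C rose by 1.87 on the log2 scale in the NELFE knockdown (SE 0.39, edgeR adjusted p = 0.0125) and by 1.64 in the NELFB knockdown (SE 0.42, edgeR adjusted p = 0.0232). The NELFE call was lost without control replicate 2 or NELFE replicate 1, and the NELFB call without control replicate 2 or 3 or either NELFB library. Both were also lost without the knockdown libraries numbered 2 (edgeR adjusted p = 0.0822 and 0.119) and with no filter on low counts (edgeR adjusted p = 0.125 and 0.189), where the pooled call was lost too (edgeR adjusted p = 0.0575). Omitting 1 library at a time, the log2 fold changes lay between 1.55 and 2.48 and between 1.35 and 2.25.

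CDKN1B (ENSG00000111276.10, chromosome 12, 12685498 to 12722369) encodes p27, which is controlled largely by protein turnover. It was at 90.8, 83.7 and 87.3 CPM in control cells, at 84.9, 89.6 and 104 CPM in the NELFE knockdown and at 89.7 and 90.9 CPM in the NELFB knockdown. The groups overlapped, and the log2 fold changes of 0.09 (SE 0.09, edgeR adjusted p = 0.518) and 0.05 (SE 0.10, edgeR adjusted p = 0.757) were not called. On the opposite strand its gene body overlaps that of GPR19, an orphan G protein-coupled receptor, which had 90, 73 and 100 reads in the control libraries, 156, 145 and 190 in the NELFE knockdown and 226 and 168 in the NELFB knockdown. GPR19 rose by a log2 fold change of 1.03 over both knockdowns (edgeR adjusted p = 0.0023), a call that held on leaving out each library. Exons of CDKN1B share no base with exons of other genes in GENCODE v44.

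Among the INK4 genes, CDKN2B (ENSG00000147883.10, chromosome 9, 22002903 to 22009305) encodes p15, an inhibitor that TGF-beta is known to induce. Its level was 2.84, 3.10 and 3.46 CPM in control cells, 9.02, 9.89 and 16.4 CPM in the NELFE knockdown and 16 and 11.9 CPM in the NELFB knockdown. The control libraries lay close together and every knockdown library was well above them. CDKN2B rose by 1.90 on the log2 scale in the NELFE knockdown (SE 0.24, edgeR adjusted p = 0.00133) and by 2.15 in the NELFB knockdown (SE 0.26, edgeR adjusted p = 0.000662). It was called in both knockdowns under all 15 alternatives tried, with log2 fold changes between 1.59 and 2.07 and between 1.91 and 2.35.

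CDKN2A (ENSG00000147889.16, chromosome 9, 21967752 to 21995301), the neighbour of CDKN2B, encodes p16 and, in another reading frame, the MDM2 inhibitor p14ARF, and its reads do not separate these products. It was at 40.3, 34.8 and 35.9 CPM in control cells, at 33.9, 30.3 and 39.1 CPM in the NELFE knockdown and at 36.2 and 36.7 CPM in the NELFB knockdown. The groups overlapped, with log2 fold changes of -0.10 (SE 0.11, edgeR adjusted p = 0.549) and -0.02 (SE 0.12, edgeR adjusted p = 0.916). CDKN2B-AS1, the antisense RNA that crosses both genes, had 61, 53 and 55 reads in control cells, 63, 48 and 53 after NELFE loss, and 66 and 65 after NELFB loss. Over both knockdowns its log2 fold change was 0.08 (edgeR adjusted p = 0.754). Of the exon bases of CDKN2A 15.3% are shared with exons of CDKN2B-AS1, and reads on shared bases are counted for neither gene, while exons of CDKN2B share none.

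CDKN2C (ENSG00000123080.10, chromosome 1, 50960745 to 50974634) encodes p18 and was at 68.2, 63.4 and 75.1 CPM in control cells, at 70.8, 68.9 and 95.0 CPM in the NELFE knockdown and at 78.7 and 77.3 CPM in the NELFB knockdown. Both NELFB libraries were above the control libraries, whereas the NELFE libraries overlapped them. The log2 fold changes were 0.18 in the NELFE knockdown (SE 0.12, edgeR adjusted p = 0.343) and 0.18 in the NELFB knockdown (SE 0.14, edgeR adjusted p = 0.382). CDKN2D (ENSG00000129355.6, chromosome 19, 10566460 to 10569059), which encodes p19, was at 6.53, 6.03 and 6.0 CPM in control cells, at 7.60, 6.28 and 8.0 CPM in the NELFE knockdown and at 6.80 and 6.71 CPM in the NELFB knockdown. The NELFE libraries overlapped the control libraries and both NELFB libraries were just above them, with log2 fold changes of 0.24 (SE 0.14, edgeR adjusted p = 0.285) and 0.13 (SE 0.16, edgeR adjusted p = 0.607).

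Of the D-type cyclins, CCND1 (ENSG00000110092.3, chromosome 11, 69641156 to 69654474) is the one that mitogens, WNT and RAS signalling are best known to induce. Its level was 4.77, 4.74 and 4.95 CPM in control cells, 19.9, 13.2 and 26.2 CPM in the NELFE knockdown and 19.4 and 8.63 CPM in the NELFB knockdown. The control libraries were nearly equal, and the lowest knockdown library was NELFB replicate 2. CCND1 rose by 2.03 on the log2 scale in the NELFE knockdown (SE 0.31, edgeR adjusted p = 0.00324) and by 1.54 in the NELFB knockdown (SE 0.33, edgeR adjusted p = 0.0111). The NELFE call held under all 15 alternatives (1.78 to 2.26), while the NELFB call was lost without NELFB replicate 1, where the log2 fold change was 0.83 (edgeR adjusted p = 0.188). LTO1, which shares 497 of the 4761 exon bases of CCND1 on the opposite strand, had between 790 and 908 reads in the 8 libraries and a log2 fold change of -0.01 over both knockdowns (edgeR adjusted p = 0.934).

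CCND2 (ENSG00000118971.7, chromosome 12, 4269771 to 4305353), a cyclin known as a target of MYC and of FOXO factors, was at 29.0, 30.6 and 30.3 CPM in control cells. It was at 30.8, 39.6 and 44.6 CPM in the NELFE knockdown and at 60.9 and 62.6 CPM in the NELFB knockdown. The lowest NELFE library was level with the controls, and both NELFB libraries were above all others. CCND2 rose by a log2 fold change of 1.04 in the NELFB knockdown (SE 0.13, edgeR adjusted p = 0.000896), a call that held under all 15 alternatives. The smaller NELFE value of 0.35 on the log2 scale was not called (SE 0.12, edgeR adjusted p = 0.0752), but it was in 3 of the 15 alternatives, among them no filter on low counts (0.35, edgeR adjusted p = 0.0169) and the fit without NELFE replicate 1 (0.49, edgeR adjusted p = 0.0224). The difference between the effects, NELFE minus NELFB, was -0.69 (SE 0.13, edgeR adjusted p = 0.089) and did not pass the test. Of all genes, 0.237% passed it with a positive difference and 0.0771% with a negative one. The difference of CCND2 was called in 4 of the 14 alternatives, each time with the larger effect in the NELFB knockdown. Among these were DESeq2, no filter on low counts and the fit without NELFE replicate 3. The pooled call of CCND2 (log2 fold change 0.67, edgeR adjusted p = 0.0373) held without NELFE replicate 1 or 2, and was lost without any other single library (edgeR adjusted p between 0.062 and 0.139), without both knockdown libraries numbered 2 (edgeR adjusted p = 0.0869) and with no filter on low counts (edgeR adjusted p = 0.192). It was called in 6 of 15 alternatives, with log2 fold changes between 0.56 and 0.80.

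CCND3 (ENSG00000112576.12, chromosome 6, 41934934 to 42050357), a cyclin prominent in blood cells, was at 69.0, 79.0 and 98.7 CPM in control cells, at 62.7, 63.3 and 86.8 CPM in the NELFE knockdown and at 58.9 and 59.6 CPM in the NELFB knockdown. It was the member with the widest spread among controls in absolute terms, and the library numbered 3 was the highest in both the control and the NELFE group. The log2 fold changes were -0.21 (SE 0.15, edgeR adjusted p = 0.368) and -0.47 (SE 0.17, edgeR adjusted p = 0.0748). CCND3 was called lower in the NELFB knockdown in 6 of the 15 alternatives, and over both knockdowns in 2 of 15. For none of the 10 members did the effects of the knockdowns differ by the test at an adjusted p under 0.05, and for the 9 members other than CCND2 the edgeR adjusted p was between 0.983 and 0.999.

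**Figure D2:**
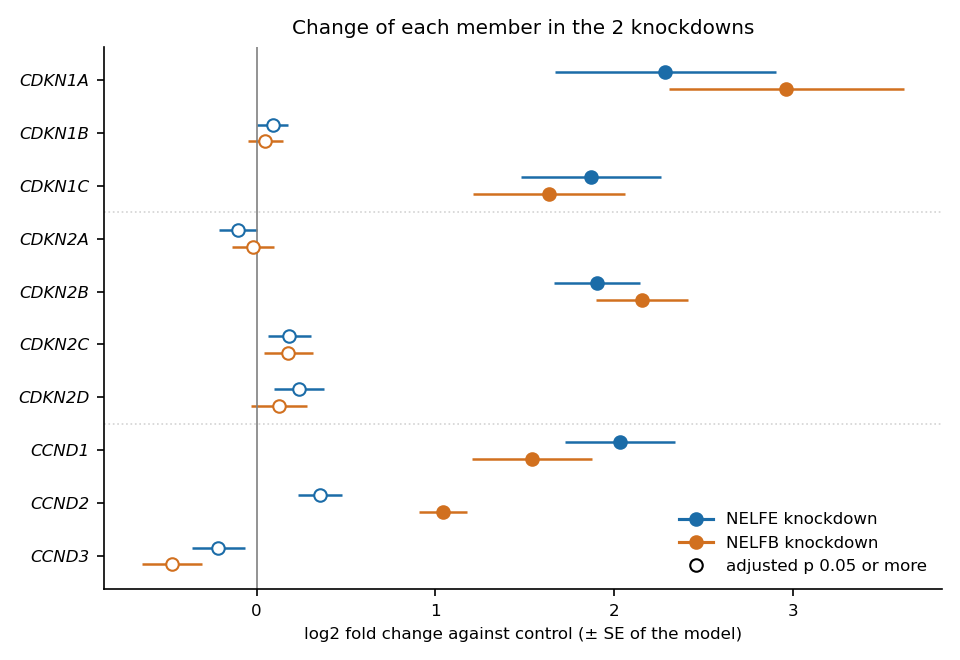
Log2 fold change against control (horizontal axis) of each gene in the NELFE (blue) and NELFB (orange) knockdown, with bars of 1 SE of the fit; filled points were called at an adjusted p under 0.05. CDKN1A, CDKN1C, CDKN2B and CCND1 lie between 1.54 and 2.96 in both knockdowns, CCND2 is called only in the NELFB knockdown (difference not called), and the other genes lie between -0.47 and 0.24.

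To compare levels between genes, counts were divided by the length of all annotated exons and given as TPM, which sum to the same total in each library. In control cells CDKN2C was the most abundant member at 93.4 ± 6.97 TPM (SD, n = 3), followed by CCND3 at 58.3 ± 9.82 TPM (SD, n = 3). CDKN2A at 39.0 TPM and CDKN1B at 38.6 TPM did not differ beyond their spread. Below them CDKN2D had 16.8 TPM, CCND2 15.4, CDKN1A 11.1, CDKN1C 6.21, CCND1 4.14 and CDKN2B 3.20 TPM, where the ranges of CCND2 and CDKN1A, of CDKN1A and CDKN1C, and of CDKN1C and CCND1 overlapped. The 4 genes called in both knockdowns were thus the 4 least abundant members in control cells. With NELFE lost, CDKN1A came second at 55.2 ± 40.4 TPM (SD, n = 3), its range overlapping those of CDKN2C and CCND3, and in the NELFB knockdown it reached 87.5 ± 59.99 TPM (SD, n = 2). The order of the abundant genes and the rank of CDKN1A depend on the length used. By the longest transcript CDKN2A, whose exon bases far exceed any of its transcripts, led in control cells at 105 TPM. CDKN1A then held rank 5 in the NELFE knockdown, at 53.9 ± 39.5 TPM (SD, n = 3). In the NELFB knockdown it held rank 2, at 86.0 ± 59.2 TPM (SD, n = 2). Of the 30 positions in the 3 groups, 16 kept their rank.

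The make-up of the families changed with these genes. CDKN1A and CDKN1B made up 19.7% ± 5.86 and 69.5% ± 6.97 of the Cip/Kip TPM in control cells (SD, n = 3), 42.5% ± 16.6 and 37.3% ± 12.2 in the NELFE knockdown (SD, n = 3) and 55.6% ± 18.9 and 29.6% ± 11.3 in the NELFB knockdown (SD, n = 2). The summed Cip/Kip level was 61.8, 56.9 and 49.0 TPM in the control libraries, 102, 167 and 91.8 TPM in the NELFE knockdown and 107 and 188 TPM in the NELFB knockdown, without overlap. The INK4 sum moved less, from 152 ± 8.52 TPM (SD, n = 3) to 176 ± 23.9 (SD, n = 3) and 179 ± 3.9 TPM (SD, n = 2), with overlapping libraries in the NELFE knockdown. Among the D-type cyclins, CCND3 made up 72.1%, 74.0% and 78.0% of the TPM in control libraries, 57.5%, 58.7% and 57.6% in the NELFE knockdown and 46.6% and 51.7% in the NELFB knockdown. CCND1 took 5.38% ± 0.651 in control cells, 19.3% ± 3.95 in the NELFE knockdown (SD, n = 3 each) and 13.8% ± 6.73 with NELFB lost (SD, n = 2), and CCND2 took 19.9%, 22.7% and 37.0% on average. The summed D-type cyclin level stayed within overlapping ranges, at 77.8 ± 9.92 TPM in control cells, 88.0 ± 14.1 TPM in the NELFE knockdown (SD, n = 3 each) and 86.8 ± 5.47 TPM in the NELFB knockdown (SD, n = 2). These sums and shares were not tested, and they depend on the length used, here that of all annotated exons. By the longest transcript CDKN1B stayed above CDKN1A in the NELFE knockdown, at 65.6 against 53.9 TPM. In the NELFB knockdown it was below, at 64.1 against 86.0 TPM. By that length CCND3 had 102 TPM in control cells, 90.5 in the NELFE knockdown and 76.2 in the NELFB knockdown.

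**Figure D3:**
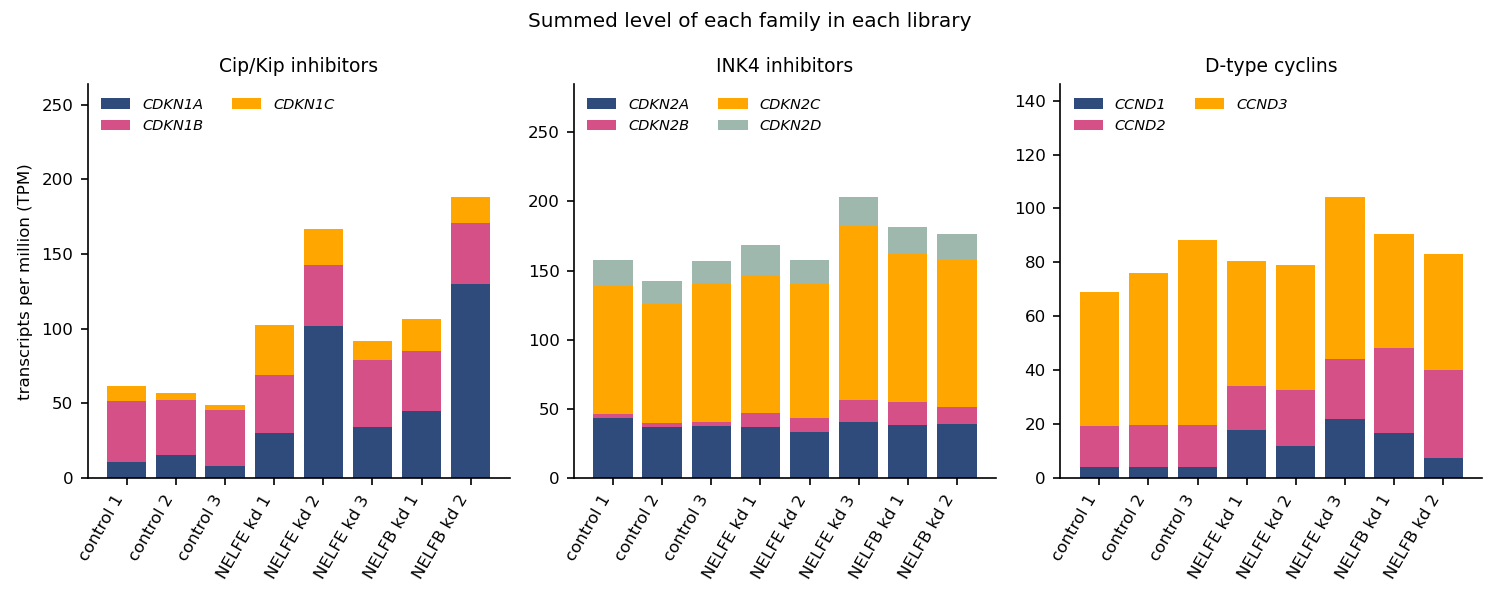
TPM of each gene, by the length of all annotated exons, stacked by family (vertical axes, linear from 0) in each of the 8 libraries. The Cip/Kip stacks are higher in all knockdown libraries, by their CDKN1A and CDKN1C segments, whereas the D-type cyclin stacks overlap in height and differ in their share of CCND3, which is 72.1% or more in the control libraries and 58.7% or less in the knockdown libraries.

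Among the partners of these genes, several cell cycle kinases were called lower and none of that list higher. The lists that follow are to be read against the shares of all genes tested that were called, 7.92% higher and 7.04% lower in the NELFE knockdown and 10.6% and 8.88% in the NELFB knockdown. Pairs of log2 fold changes are given here and for the next lists in the order NELFE knockdown, NELFB knockdown. Of 18 cell cycle kinases, their activators and other cyclins, 0 were higher and 3 lower in the NELFE knockdown. In the NELFB knockdown 0 were higher and 7 lower, and each of these 7 calls was lost without NELFB replicate 1. The median log2 fold changes were -0.28 and -0.32. CDK6, a partner of D-type cyclins, was at 71.6, 73.5 and 70.5 CPM in control cells, at 52.6, 53.9 and 51.5 CPM in the NELFE knockdown and at 58.4 and 57.6 CPM in the NELFB knockdown, without overlap. It fell by 0.45 (SE 0.07, edgeR adjusted p = 0.0032) and by 0.31 on the log2 scale (SE 0.08, edgeR adjusted p = 0.019). CDK1, the mitotic kinase, fell by 0.47 (edgeR adjusted p = 0.0184) and by 0.62 (edgeR adjusted p = 0.00747), and PKMYT1, the kinase that holds CDK1 inactive, fell by 0.90 in both (edgeR adjusted p = 0.00763 and 0.00961). CDK4, the other partner of D-type cyclins, ranged from 120 to 153 CPM in control cells and at 133 to 168 CPM in the knockdowns, with a log2 fold change of 0.07 over both (edgeR adjusted p = 0.619). CDK2, the kinase that Cip/Kip proteins inhibit, had log2 fold changes of -0.27 (edgeR adjusted p = 0.203) and -0.51 (edgeR adjusted p = 0.0424).

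Among 13 pocket proteins and E2F factors, 0 were higher and 2 lower in the NELFE knockdown and 0 higher and 3 lower in the NELFB knockdown, with medians of -0.20 and -0.23. E2F2, an activator of S-phase genes, was at 107, 119 and 116 CPM in control cells, at 65.2, 63.9 and 83.9 CPM in the NELFE knockdown and at 52.9 and 60.02 CPM in the NELFB knockdown. It fell by 0.68 (edgeR adjusted p = 0.00439) and by 1.01 on the log2 scale (edgeR adjusted p = 0.000861). E2F8, a repressor that S-phase cells express, fell by 0.63 (edgeR adjusted p = 0.0296) and by 0.77 (edgeR adjusted p = 0.0178). RB1, which encodes the retinoblastoma protein, had a log2 fold change of 0.11 over both knockdowns (edgeR adjusted p = 0.362), and its groups overlapped.

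Among 20 factors of the turnover of these proteins, 2 were higher and 2 lower in the NELFE knockdown and 2 higher and 3 lower in the NELFB knockdown, with medians of -0.05 and -0.13. CKS1B, with which SKP2 recognises p27, fell by 0.54 (edgeR adjusted p = 0.00799) and by 0.64 (edgeR adjusted p = 0.00488), and RBX1, the RING subunit of cullin ligases, fell by 0.46 (edgeR adjusted p = 0.0125) and by 0.64 (edgeR adjusted p = 0.0041). GSK3B, a kinase that marks cyclin D1 for export and degradation, rose by 0.35 (edgeR adjusted p = 0.029) and by 0.42 (edgeR adjusted p = 0.0162). CRYAB, a small heat shock protein that acts with FBXO4 on cyclin D1, was picked out after its values were seen, because its difference was the widest of the list. It was at 0.44, 4.57 and 9.89 CPM in control cells, at 29.5, 23.0 and 177 CPM in the NELFE knockdown and at 138 and 81.0 CPM in the NELFB knockdown. CRYAB was called over both knockdowns (log2 fold change 4.19, SE 1.16, edgeR adjusted p = 0.042) but in neither alone (edgeR adjusted p = 0.0761 and 0.0536), and the pooled call held only without NELFE replicate 1 or 2 (edgeR adjusted p up to 0.131 without 1 of the other libraries).

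Of 25 transcription factors known to act on the 10 genes, 1 was higher and 2 lower in the NELFE knockdown and 2 were higher and 2 lower in the NELFB knockdown, with medians of 0.03 and 0.08. KLF6, an activator of CDKN1A, fell by 0.47 (edgeR adjusted p = 0.0226) and by 0.61 (edgeR adjusted p = 0.0102), and TFAP4, a repressor of CDKN1A, fell by 0.39 (edgeR adjusted p = 0.0232) and by 0.48 (edgeR adjusted p = 0.0133). MYC, which represses CDKN1A and CDKN2B, was at 1256, 874 and 659 CPM in control cells, at 1044, 1242 and 608 CPM in the NELFE knockdown and at 966 and 1246 CPM in the NELFB knockdown. Its groups overlapped, with a log2 fold change of 0.14 over both (edgeR adjusted p = 0.741). Of 24 Polycomb subunits and their opponents, which bear on the INK4 locus, 2 were higher and 4 lower in the NELFE knockdown and 2 higher and 5 lower in the NELFB knockdown, with medians of -0.04 and -0.06. CBX2, a subunit that reads H3K27 methylation, fell by 0.43 (edgeR adjusted p = 0.00478) and by 0.39 (edgeR adjusted p = 0.00867), and KDM2B, which brings a Polycomb complex to CpG islands, fell by 0.29 (edgeR adjusted p = 0.0325) and by 0.38 (edgeR adjusted p = 0.0135). KDM6B, a demethylase of H3K27, rose by 0.53 (edgeR adjusted p = 0.0365) and by 0.72 (edgeR adjusted p = 0.013), and PHC2 rose by 0.33 (edgeR adjusted p = 0.0281) and by 0.30 (edgeR adjusted p = 0.0494).

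Many calls of these partner genes in 1 knockdown depended on single libraries. In the NELFE knockdown CDK6, PKMYT1, E2F2, CKS1B and CBX2 were called on leaving out each of the 8 libraries, whereas E2F8 and KDM6B were called in 1 of the 8 fits, KDM2B and PHC2 in 2, GSK3B in 4, CDK1, KLF6 and TFAP4 in 5 and RBX1 in 6. Of the partner genes named above and called in the NELFB knockdown, only E2F2 was called there in all 8 fits. RBX1 was lost without NELFB replicate 2 and the others at least without NELFB replicate 1. Among these, PHC2 was called in 1 of the 8 fits, CDK2 in 4 and CDK6 in 5. PHC1, which is described below, was also called in all 8 (log2 fold change -1.48 in the NELFB knockdown). Over both knockdowns CDK1, CDK6, PKMYT1, E2F2, E2F8, CKS1B, RBX1, GSK3B, KLF6, TFAP4, CBX2, KDM2B, KDM6B and PHC2 were each called in all 8 fits, at an edgeR adjusted p of 0.0342 at most. Of the other kinases and cyclins called lower over both knockdowns, CCNB2 was called in all 8 fits, CCNB1 in 6, CDC25A in 5 and CCNA2 in 2. All log2 fold changes of these calls kept their sign.

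**Figure D4:**
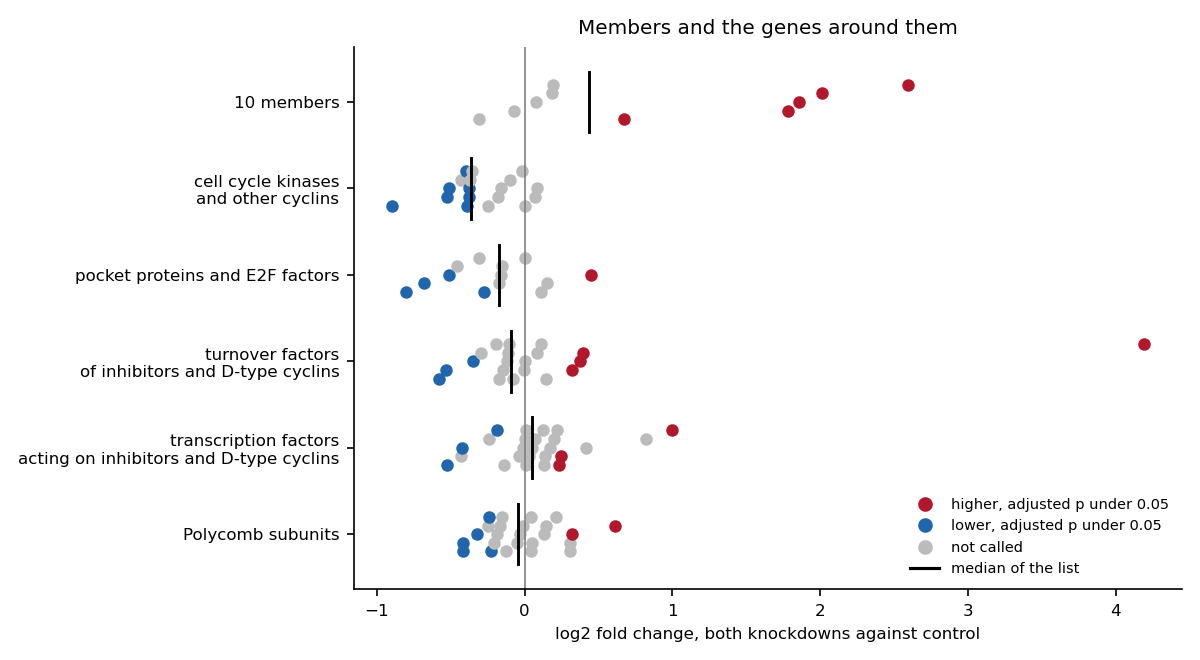
Log2 fold change over both knockdowns (horizontal axis) of the 10 members and of each gene in the 5 other lists (rows); red and blue points were called higher and lower, grey points were not called, and black bars are medians. The members called higher lie between 0.67 and 2.6, the kinases and cyclins are called in 1 direction only (7 lower), and the point at 4.19 among the turnover factors is CRYAB. Of the 7 lower kinases and cyclins, CCNA2, CCNB1 and CDC25A were not called on leaving out some single libraries.

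The genes closest in profile to each member that was called over both knockdowns were sought by Pearson correlation of log2 CPM over the 8 libraries among 12792 genes. This is a description without a test, since the libraries share their groups and so do the profiles. For CDKN1A the closest were the pseudogene RRN3P1 (r = 0.974), the long noncoding RNA PURPL (0.972) and DPY19L4 (0.970). STAG3, a cohesin subunit of meiosis, was closest to CDKN1C (0.986), followed by the gene HAP1 (0.984) and the transporter SLC41A3 (0.983). CBY1, an inhibitor of beta-catenin, was closest to CDKN2B (0.993), with NRSN2 (0.993) and PDZD11 (0.991) next. CCND1 had MMUT, a mitochondrial mutase (0.987), ETS2, a transcription factor (0.982), and SERF2 (0.976), and CCND2 had the phosphatase subunit PPP1R12A (0.978), the actin-binding PALLD (0.975) and DENND2B (0.971). The log2 fold changes of these genes over both knockdowns ranged from 0.10 for MMUT to 1.12 for STAG3.

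Other annotated genes close to the members gave few reads or no difference. CDKN2A-DT had 1 to 6 reads per library, UBA52P6 next to CDKN2B had 2 to 7, and CCND2-AS1 had 0 to 2. PANDAR, LAP3P2 and a Y RNA next to CDKN1A, ENSG00000264545 across the CDKN2A and CDKN2B locus, and RNU6-761P within CCND3 had no reads in any library. ENSG00000256658 near CDKN1B had 0 to 2 reads and ENSG00000223946 within CCND3 had 1 read in 1 library. FAF1, next to CDKN2C, had a log2 fold change of -0.11 over both knockdowns (edgeR adjusted p = 0.255) and KRI1, next to CDKN2D, one of -0.08 (edgeR adjusted p = 0.433). Of the exon bases of CCND2, 2.03% are shared with exons of genes listed in the count table, and of those of CCND3 0.417%, while CDKN1A and CDKN2C share none with listed genes.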

How the data were processed

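The authors deposited raw counts of single-end 65-base reads per gene of Gencode v24, made during alignment to GRCh38 with STAR 2.5.4a without regard to strand, after quality control with FastQC 0.11.6. The deposited counts carry no normalization. STAR leaves out reads with several alignments or on several genes. Totals of 22037423 to 24444185 counts set the precision of low genes. Symbols and exon lengths came from GENCODE v44. Promoter windows came from RefSeq (GRCh38.p14), and the CDKN2A, CDKN2C and CCND3 genes have several.

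Tests were made by edgeR 4.0.16 under R 4.3.3 after its filterByExpr step and TMM scaling, with a robust quasi-likelihood fit. P-values were adjusted over all genes tested by the method of Benjamini and Hochberg. The fits were a model of the 3 groups and one with all knockdown libraries as 1 group as in the study. The steps were tested on simulated data. P-values set each difference against the spread between these libraries of 1 clone. The 10 members and the gene lists were chosen with earlier results of these data known. Named genes are the members, the guide targets, CDK2, CDK4, CDK6, RB1 and MYC, up to 4 genes per list called in both knockdowns with the largest change over both, the 3 closest profiles of each called member (pseudocount of 1 CPM, average log2 CPM of at least 1), and genes overlapping a member or starting within 10 kb. Alternatives were DESeq2 1.42.0 (which the authors used), its size factors in edgeR, no filter, a minimum of 10 counts per library, the replicate block, other sets of libraries in the fit, each library left out, other lengths for TPM, and, added after the data were seen, both knockdown libraries numbered 2 left out. No library was a copy of another. One gene list and single genes of the rules are not reported here.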

Additional observations from a re-analysis of the deposited data

Results flagged for a closer look

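Among the genes of the lists, 3 had effects that differed between the knockdowns by the test of the difference itself, and none of the 10 members did. NELFE and NELFB, the targets of the guide RNAs, differed by -4.52 (edgeR adjusted p = 6.09e-09) and 4.44 (edgeR adjusted p = 6.09e-09) on the log2 scale, NELFE effect minus NELFB effect. PHC1, a Polycomb subunit, differed by 1.81 (edgeR adjusted p = 0.00214). It was at 18.7, 14.3 and 12.7 CPM in control cells, at 21.0, 20.6 and 15.9 CPM in the NELFE knockdown and at 5.93 and 5.0 CPM in the NELFB knockdown, so both NELFB libraries were below all others. The call of this PHC1 difference was lost without NELFB replicate 2. On omission of 1 library the difference lay between 1.69 and 1.95.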

How the results depend on the processing

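Leaving out each library in turn, the NELFE knockdown had 990 to 3123 called genes and 2 to 4 called members, the NELFB knockdown 603 to 4316 and 3 to 6, both together 2688 to 5125 and 3 to 5, and the difference between the knockdowns 27 to 78 and 0 to 1, against 2520, 3290, 4255 and 53 called genes with all libraries. Without both knockdown libraries numbered 2, the called genes were 465, 752 and 2087 for the NELFE, NELFB and pooled comparisons, with fewer samples in the fit. The difference between the knockdowns gave 90 called genes and 1 member with DESeq2, 161 and 1 with no filter, and 195 and 1 with the replicate block, the member being CCND2 each time. With no filter, the pooled comparison called 2 members. The block gave 4763 called genes in the NELFE knockdown. Replicate numbers were not taken as pairs: the deviations of same-numbered control and NELFE libraries correlated at 0.389, 0.074 and 0.599, and those of control and NELFB libraries at -0.045 and -0.020. Same-numbered NELFE and NELFB libraries correlated at 0.119 and 0.288, while NELFE replicate 2 correlated better with control replicate 1 (0.320) than with its own number. The highest values, 0.599 and 0.389, were of same-numbered libraries. Control replicate 3 correlated at -0.438 and -0.449 with NELFE replicates 1 and 2, and control replicate 1 at -0.478 with NELFE replicate 3. Whether some numbers mark libraries made together was not tested. Under the block CCND2 and CCND3 were also called in the NELFE knockdown (0.34 and -0.21) and CDKN2C and CCND3 in the NELFB knockdown (0.29 and -0.31), while in the pooled comparison CCND2 was lost (edgeR adjusted p = 0.175), CDKN2C was called higher (0.22, edgeR adjusted p = 0.0262) and CCND3 lower (-0.25, edgeR adjusted p = 0.00903). By the longest transcript, 16 positions of the order of levels kept their rank. Reversed signs arose only in log2 fold changes that were not called. With the block these were CDKN2A in the NELFB knockdown (0.017) and the knockdown differences of CDKN1B (-0.0062) and CDKN2C (-0.12). On omission of 1 library they were CDKN1B in the NELFE knockdown (-0.0012 to 0.15), CDKN2A in the NELFB knockdown (-0.066 to 0.044) and the knockdown differences of CDKN1A (-1.44 to 0.28), CDKN1B (-0.050 to 0.10), CDKN1C (-0.089 to 0.51), CDKN2A (-0.18 to 0.0027) and CDKN2C (-0.16 to 0.088). Causes were not tested. With 2 NELFB libraries, omitting 1 leaves a lone library assumed to vary like the others.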
